A study of Homo sapiens with 18 samples.

Results

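The interferon-stimulated genes and nucleic acid sensors are described here gene by gene in U2OS, an established human osteosarcoma cell line. The members are a list of 55 gene symbols taken from general knowledge of the interferon response, chosen with earlier results of these data known. Of them, 52 have a row in the table of 25296 genes. After the filter on low counts, 47 of the 52 were among the 18226 genes tested. IFI27, OAS2, IRF7, XAF1 and RTP4 were too low to be tested and are given by their counts. The expression of RSAD2, EPSTI1 and ZBP1 was not analysed here. The study compared 3 lines derived from U2OS. The EV line carried the empty retroviral vector MigR1, the WT line overexpressed wild-type DNMT3A and the MUT line overexpressed mutant DNMT3A, which is a DNA methyltransferase. The mutation is given as R882C in the series text and as R882H in the sample labels, so it is written as mutant. Cells of each line were taken after 24 h in 10 µM cytarabine, a nucleoside drug that blocks DNA synthesis once incorporated, or without it. The latter are a vehicle control in the series text and untreated in the labels. Each of the 6 groups held 3 libraries of total RNA, which the labels call biological triplicates. Whether a line was 1 clone or a pool of transduced cells is not given in the sources used here. All 3 lines share the U2OS background and its endogenous DNMT3A.

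The interferon response starts when receptors such as RIG-I, MDA5, TLR3 or cGAS bind nucleic acid in the wrong place. Their adaptors MAVS, TICAM1 and STING activate the kinases TBK1 and IKBKE, which switch on IRF3 and the interferon genes. Secreted type I interferon then binds the receptor IFNAR1/IFNAR2, the kinases JAK1 and TYK2 phosphorylate STAT proteins such as STAT2, which join IRF9 in a complex that binds the interferon-stimulated response element in promoters. The genes switched on in this way encode most of the members, among them sensors and STAT proteins that feed the response back on itself. The interferon genes of type I themselves were not analysed here.

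Library totals ran from 15.4 to 21.9 M estimated counts. DNMT3A lay at 26.2 to 27.5 CPM (counts per M counts of the scaled library) in untreated EV cells, at 129 to 139 CPM in untreated WT and at 499.7, 615 and 254 CPM in untreated MUT cells. With cytarabine it lay at 45.5 to 49.6, 166 to 182 and 515 to 532 CPM in the same order. The 3 untreated MUT libraries were the least alike: chi-square divided by its degrees of freedom, between replicates, was 21.2 to 46.8 there and 2.45 to 15.2 in the other groups. The median coefficient of variation of the members was 17.7% in untreated MUT and 7.75% to 14.2% elsewhere. Of 8 mesenchymal marker genes measured, VIM, SPARC and COL1A1 were at 60.8 CPM or more in every library, RUNX2 at 29.6 or more and ALPL at 6.27 or more. COL1A2 was at 0.292 to 8.11 CPM, SPP1 at 0.375 to 1.35 CPM and BGLAP, a mature osteoblast marker, was at most at 0.437 CPM. The sum of the mesenchymal markers was 3116 to 3913 CPM untreated and 2260 to 2712 CPM with cytarabine. Among blood markers, PTPRC was at 0.171 to 1.41 CPM and CD14 at 0 to 0.251 CPM, with a median of 0 for CD14. The epithelial markers EPCAM, CDH1, KRT8 and KRT18 summed to 468 to 983 CPM, almost all of it from the keratins. The endothelial markers PECAM1, VWF and CDH5 summed to 1.15 to 4.46 CPM untreated and 3.15 to 10.6 CPM with cytarabine. These are bulk libraries, in which fewer cells of a kind and less RNA per cell cannot be told apart.

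Promoters are shown first, since the response element is what the members are known to share. RefSeq gave a window of 300 bases (250 before and 50 after the start, build GRCh38.p14) for 43 of the 55 members. The core of the interferon-stimulated response element was searched as GAAANNGAAA on both strands. It was present in 27 of the 43 windows (62.8%), against 1255 of 35116 windows of all genes (3.57%). The gamma-activated site, searched as TTCNNNGAA on both strands, was present in 11 of the 43 windows (25.6%) against 7.66% of all windows. The following stretches of 80 bases lie upstream of the start, with each match to the first motif in capitals (on either strand, overlapping matches joined). The first 6 belong to members that rose with cytarabine and the last to a member that was not called in any line.
IFI6 (chr1:27672241-27672320, minus strand): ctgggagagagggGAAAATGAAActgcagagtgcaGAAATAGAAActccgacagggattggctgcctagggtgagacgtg
ISG15 (chr1:1013355-1013434, plus strand): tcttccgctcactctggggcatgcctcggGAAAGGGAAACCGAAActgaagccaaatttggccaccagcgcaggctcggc
IFIT1 (chr10:89392485-89392564, plus strand): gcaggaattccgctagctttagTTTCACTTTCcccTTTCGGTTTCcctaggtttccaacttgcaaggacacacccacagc
HERC5 (chr4:88457010-88457089, plus strand): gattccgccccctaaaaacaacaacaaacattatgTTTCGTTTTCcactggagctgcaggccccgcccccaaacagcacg
BST2 (chr19:17405710-17405789, minus strand): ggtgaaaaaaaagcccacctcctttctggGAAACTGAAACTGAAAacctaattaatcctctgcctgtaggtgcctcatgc
SAMD9 (chr7:93118071-93118150, minus strand): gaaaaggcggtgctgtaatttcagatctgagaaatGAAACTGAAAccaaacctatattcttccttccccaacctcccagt
IFITM3 (chr11:320861-320940, minus strand): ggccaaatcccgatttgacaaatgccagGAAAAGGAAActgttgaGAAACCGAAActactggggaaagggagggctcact
In ISG15 and BST2 the matches overlap, and in IFIT1 they lie close together and read in the reverse direction. The motif was present in 14 of the 20 members with a window that rose in all 3 lines, as defined below, and in 7 of the 10 that rose in 1 or 2 lines. It was also present in 3 of the 8 that rose in none, which were IFIT5, IFITM3 and MX1. The other 5 windows belong to members not tested for expression, of which 3 held the motif (IFI27, EPSTI1 and RTP4) and RSAD2 and XAF1 did not. OAS1, STAT2, HERC6, SAMD9L, CMPK2 and SP110 rose in all 3 lines and had no match in this window. A match describes letters only, and no match says nothing of sites outside the window.

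Cytarabine raised most of the tested members in every line. A gene is called higher or lower where edgeR's quasi-likelihood test, with Benjamini-Hochberg adjustment over all 18226 genes, gave an adjusted p under 0.05. In EV cells 30 of 47 members were higher and 2 were lower, where 26.1% of all tested genes were higher and 22.9% were lower. In WT cells 34 of 47 were higher and none lower, against 26.3% and 22.7% of all tested genes. In MUT cells 31 of 47 were higher and 1 lower, against 30.4% and 25.9%. The members' median log2 fold change was 0.80 (EV), 0.84 (WT) and 0.65 (MUT). That of all tested genes was 0.051, 0.026 and 0.054. The treated and the untreated libraries did not overlap for 32 (EV), 37 (WT) and 31 (MUT) of the 47 members, where the same held for 58.7%, 65.3% and 56.6% of all tested genes. Altogether 26 of the 47 (55.3%) were higher in all 3 lines, against 18.9% of all tested genes, and these 3 effects share no library. Some members near silence without treatment, such as IFITM1, HERC5 and IFI44L, passed the filter on low counts through treated libraries only. The counts of genes called higher therefore lean towards rises at low abundance, for members and all genes alike. The 8 members called in no line were DHX58, MX1, IRF9, TRIM25, IFIT5, IFITM2, IFITM3 and SP100. Each count was also made under 25 alternative fits, of which 18 left out 1 library. The calls higher that held in every alternative numbered 24 of 30 (EV), 27 of 34 (WT) and 24 of 31 (MUT). Members of low abundance were not tested under the strictest filter on low counts, and they were counted as holding there. A member not tested in another alternative was counted as not holding. This was so for HERC5 and IFITM1 in WT and IFI44L in MUT, whose calls held in every fit that tested them. Without any 1 of the untreated MUT libraries, 26 to 30 members were higher in MUT.

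**Figure D1:**
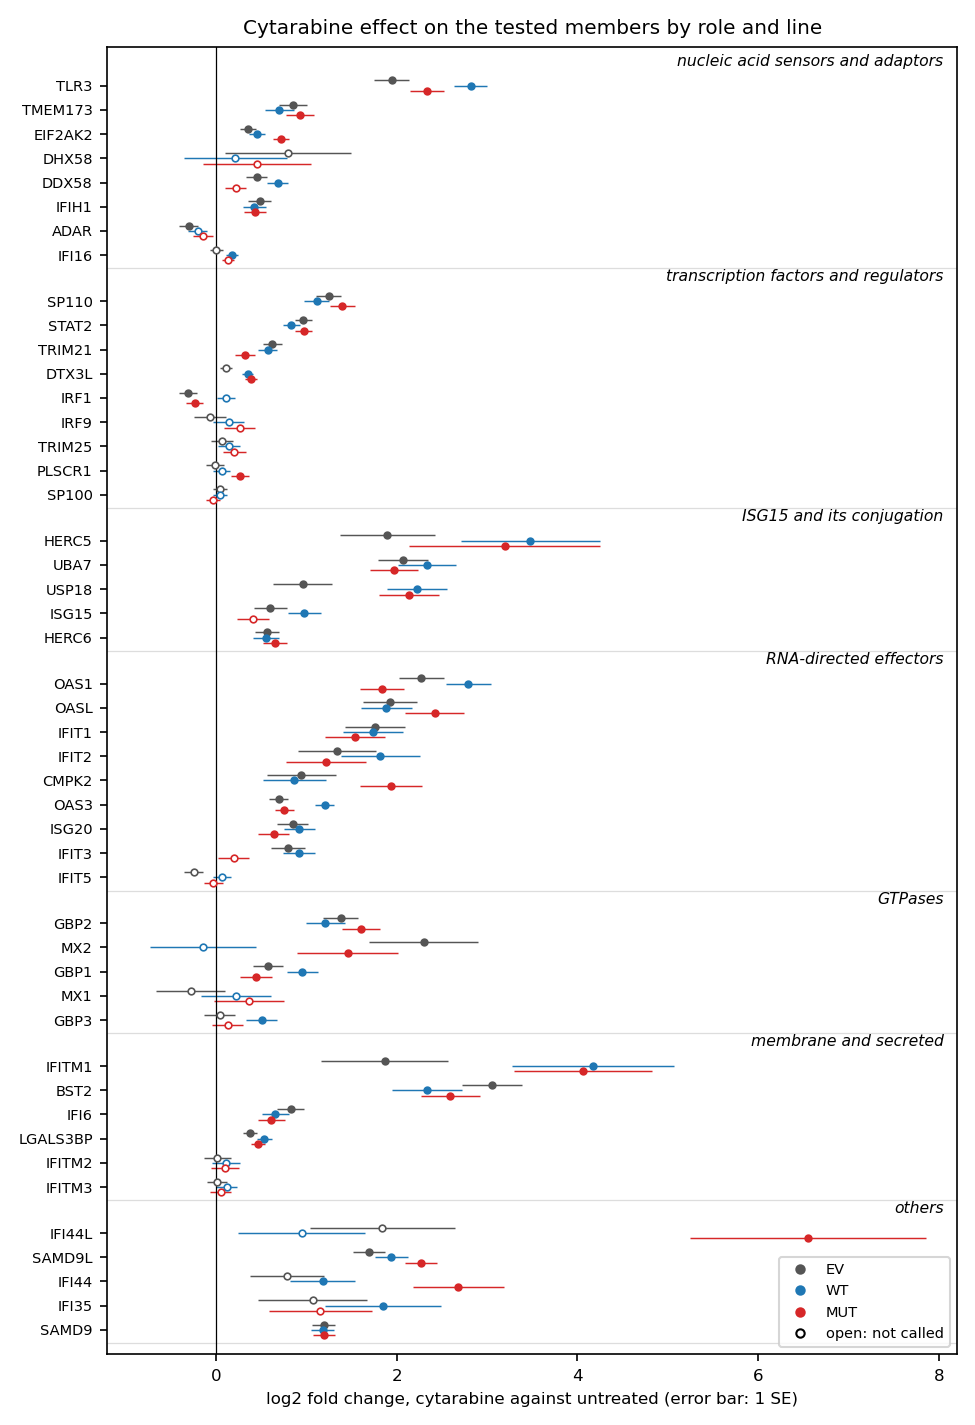
Log2 fold change of each tested member between cytarabine and untreated (x axis, error bars 1 SE), grouped by role, in the EV (grey), WT (blue) and MUT (red) lines. Filled points passed the test, open points did not; nearly all filled points lie to the right of 0, and the estimate of 6.55 for IFI44L in MUT comes from untreated libraries with no count.

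The sensors and their adaptors came first in the pathway, and of the 8 tested, 5 (EV), 6 (WT) and 4 (MUT) were higher. The shares of all tested genes were 26.1%, 26.3% and 30.4%. TLR3, the endosomal receptor for double-stranded RNA, had the largest rise among them. It was at 2.04, 1.87 and 3.32 CPM untreated and 7.43, 10.5 and 9.92 CPM with cytarabine in the EV line. The WT line gave 3.24, 3.23 and 2.31 CPM untreated and 22.5, 19.6 and 20.2 CPM with cytarabine and the MUT line 2.36, 2.64 and 1.94 CPM untreated and 11.5, 10.9 and 12.6 CPM with cytarabine. Treated libraries lay far above untreated ones in every line, and the treated WT libraries lay above the treated libraries of both other lines. The log2 fold changes were 1.94 ± 0.20 (EV), 2.82 ± 0.18 (WT) and 2.34 ± 0.19 (MUT; SE, edgeR adjusted p = 1.4e-07, 6.0e-10 and 7.3e-09). IFIH1, which encodes the long double-stranded RNA sensor MDA5, was at 7.30, 7.07 and 5.66 CPM untreated and 8.80, 9.30 and 9.92 CPM with cytarabine in EV, and its log2 fold changes were 0.48 ± 0.13 (EV), 0.43 ± 0.13 (WT) and 0.43 ± 0.12 (MUT; SE, edgeR adjusted p = 0.00391, 0.00974 and 0.00548). The WT values were 5.88, 5.82 and 5.77 CPM untreated and 7.98, 6.70 and 8.80 CPM with cytarabine. The MUT values were 10.1, 9.25 and 8.68 CPM untreated and 13.5, 11.6 and 12.7 CPM with cytarabine. No treated library overlapped an untreated one of its line, but the WT call was lost in 1 of 25 alternative fits, that without treated WT replicate 3, at a log2 fold change of 0.34 (adjusted p 0.00393 to 0.0626 over all alternatives, edgeR and DESeq2). DDX58 encodes RIG-I, the sensor of short double-stranded RNA. It was at 13.4, 11.5 and 13.5 CPM untreated and 14.2, 19.04 and 19.2 CPM with cytarabine in EV. WT cells gave 12.8, 13.7 and 12.98 CPM untreated and 20.04, 22.9 and 20.7 CPM with cytarabine. MUT cells gave 9.93, 12.6 and 11.99 CPM untreated and 14.1, 12.98 and 12.9 CPM with cytarabine. Its log2 fold changes were 0.45 ± 0.12 (EV), 0.69 ± 0.12 (WT) and 0.22 ± 0.12 (MUT; SE, edgeR adjusted p = 0.00398, 7.4e-05 and 0.132). The MUT effect was not called although its libraries did not overlap. In the GENCODE annotation, 43.2% of the exonic bases of DDX58 lie also in an unnamed gene on the same strand.

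TMEM173 encodes STING, the adaptor of cytosolic DNA sensing. It was at 4.91, 4.91 and 3.63 CPM untreated and 8.80, 6.93 and 8.55 CPM with cytarabine in EV. The WT values were 4.61, 4.60 and 4.45 CPM untreated and 8.67, 7.24 and 6.33 CPM with cytarabine. The MUT values were 5.32, 4.03 and 4.63 CPM untreated and 8.35, 9.24 and 9.06 CPM with cytarabine. Untreated and treated libraries did not overlap in any line, with log2 fold changes of 0.86 ± 0.16 (EV), 0.70 ± 0.16 (WT) and 0.93 ± 0.15 (MUT; SE, edgeR adjusted p = 1.6e-04, 9.5e-04 and 4.7e-05). EIF2AK2 encodes PKR, a kinase that stops translation when it binds double-stranded RNA. Its levels were 102, 105 and 114 CPM untreated and 118, 153 and 140.4 CPM with cytarabine in EV. In WT it was at 95.97, 101 and 109 CPM untreated and 148, 139 and 131 CPM with cytarabine. In MUT it was at 104, 120.2 and 103 CPM untreated and 184, 178 and 176 CPM with cytarabine. All treated libraries were above the untreated libraries of their line, and the log2 fold changes were 0.36 ± 0.088 (EV), 0.45 ± 0.088 (WT) and 0.72 ± 0.088 (MUT; SE, edgeR adjusted p = 0.00233, 2.9e-04 and 1.2e-06). ADAR, which edits adenosine to inosine in double-stranded RNA and so hides it from sensors, was lower in EV and not called in the other lines. It was at 302, 305 and 307 CPM untreated and 223, 273 and 247 CPM with cytarabine in EV. In WT it was at 317, 309 and 315 CPM untreated and 268, 282 and 268 CPM with cytarabine. In MUT it was at 274, 313 and 201 CPM untreated and 237, 239 and 238 CPM with cytarabine. The EV and WT libraries did not overlap while the MUT libraries did, and the log2 fold changes were -0.30 ± 0.11 (EV), -0.20 ± 0.11 (WT) and -0.14 ± 0.11 (MUT; SE, edgeR adjusted p = 0.0251, 0.122 and 0.261). In WT ADAR was called lower in 4 of 25 alternative fits, 2 of them without 1 library (untreated MUT replicates 2 and 3), at log2 fold changes of -0.26 to -0.20 (adjusted p 6.2e-05 to 0.233 over all alternatives, edgeR and DESeq2), and in MUT in 1 of 25 alternative fits, that without untreated MUT replicate 3, at a log2 fold change of -0.33 (adjusted p 3.7e-04 to 0.755 over all alternatives, edgeR and DESeq2). The EV call for ADAR was lost in 6 of 25 alternative fits, 5 of them without 1 library (treated EV replicates 1 and 3 and untreated EV replicates 1, 2 and 3), at log2 fold changes of -0.31 to -0.23 (adjusted p 4.0e-04 to 0.116 over all alternatives, edgeR and DESeq2). IFI16, a sensor of DNA, was at 48.1, 43.1 and 44.3 CPM untreated and 44.9, 45.4 and 45.6 CPM with cytarabine in EV. WT libraries held 36.7, 37.5 and 38.9 CPM untreated and 41.1, 41.7 and 45.3 CPM with cytarabine. MUT libraries held 34.9, 33.6 and 36.2 CPM untreated and 40.3, 39.8 and 35.04 CPM with cytarabine. In WT its treated libraries lay above the untreated ones, in the other lines they overlapped, and the log2 fold changes were 0.00461 ± 0.069 (EV), 0.18 ± 0.070 (WT) and 0.14 ± 0.070 (MUT; SE, edgeR adjusted p = 0.964, 0.0401 and 0.108). That WT call was lost in 9 of 25 alternative fits, 6 of them without 1 library (untreated EV replicate 3, treated WT replicates 2 and 3 and untreated WT replicates 1, 2 and 3), at log2 fold changes of 0.12 to 0.20 (adjusted p 0.0105 to 0.204 over all alternatives, edgeR and DESeq2). DHX58, which encodes LGP2, a regulator of RIG-I and MDA5, was at 0.117 to 0.688 CPM in all libraries and was not called in any line.

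Among the transcription factors and regulators, 9 were tested, of which 3 (EV), 4 (WT) and 5 (MUT) were higher. Of all tested genes 26.1%, 26.3% and 30.4% were higher, so in EV the count was near that share. The median log2 fold change of these 9 was 0.065 (EV), 0.15 (WT) and 0.26 (MUT), beside 0.051, 0.026 and 0.054 for all tested genes. STAT2, the subunit that brings the activation domain to the interferon-activated complex, had levels of 35.2, 36.5 and 36.6 CPM untreated and 73.3, 64.9 and 73.1 CPM with cytarabine in EV. WT cells gave 33.5, 40.4 and 33.2 CPM untreated and 64.9, 63.98 and 62.04 CPM with cytarabine. MUT cells gave 36.4, 28.7 and 27.7 CPM untreated and 56.8, 63.3 and 62.4 CPM with cytarabine. The groups were well apart in each line, and log2 fold changes were 0.97 ± 0.095 (EV), 0.84 ± 0.094 (WT) and 0.97 ± 0.095 (MUT; SE, edgeR adjusted p = 1.0e-07, 6.0e-07 and 6.8e-08). IRF9, the DNA-binding partner of STAT2, was at 5.84, 7.36 and 7.99 CPM untreated and 7.43, 5.24 and 7.40 CPM with cytarabine in EV. WT cells gave 7.65, 6.77 and 8.52 CPM untreated and 9.60, 8.75 and 6.96 CPM with cytarabine. MUT cells gave 7.67, 5.41 and 7.14 CPM untreated and 7.43, 7.95 and 8.98 CPM with cytarabine. Treated and untreated libraries overlapped in each line, and the log2 fold changes of -0.069 ± 0.18 (EV), 0.14 ± 0.17 (WT) and 0.26 ± 0.17 (MUT; SE, edgeR adjusted p = 0.778, 0.513 and 0.204) were not called. IRF1, a factor that also answers interferon gamma, was lower in the lines EV and MUT. Its levels were 23.7, 26.8 and 22.9 CPM untreated and 18.8, 19.4 and 20.997 CPM with cytarabine in EV. WT libraries held 22.8, 21.1 and 19.03 CPM untreated and 22.5, 22.05 and 23.5 CPM with cytarabine. MUT libraries held 33.05, 26.6 and 31.2 CPM untreated and 23.7, 27.1 and 26.7 CPM with cytarabine. The groups overlapped in WT and MUT, and the log2 fold changes were -0.31 ± 0.098 (EV), 0.11 ± 0.097 (WT) and -0.23 ± 0.095 (MUT; SE, edgeR adjusted p = 0.0129, 0.362 and 0.0440). The EV call was lost in 1 of 25 alternative fits, that without untreated EV replicate 2, at a log2 fold change of -0.24 (adjusted p 0.00265 to 0.0820 over all alternatives, edgeR and DESeq2). The MUT call was lost in 9 of 25 alternative fits, 7 of them without 1 library (untreated EV replicate 1, treated MUT replicates 1 and 3, untreated MUT replicate 1 and treated WT replicates 1, 2 and 3), at log2 fold changes of -0.26 to -0.16 (adjusted p 0.00275 to 0.190 over all alternatives, edgeR and DESeq2). IRF7, the factor that amplifies interferon production, held 0 to 9 counts a library and was not tested. Its summed counts went from 16 to 13 (EV), 11 to 14 (WT) and 3 to 21 (MUT). In MUT the ratio of CPM was 5.61 with a 95% counting interval of 1.67 to 29.4. Of the nuclear body proteins, SP110 rose by 1.25 (EV), 1.12 (WT) and 1.40 (MUT) on the log2 scale while SP100 was not called. TRIM21, a cytosolic antibody receptor and ubiquitin ligase, rose by 0.63 (EV), 0.57 (WT) and 0.32 (MUT), and its MUT call was lost in 5 of 25 alternative fits, 3 of them without 1 library (treated MUT replicate 2 and untreated MUT replicates 1 and 3), at log2 fold changes of 0.21 to 0.31 (adjusted p 0.00277 to 0.108 over all alternatives, edgeR and DESeq2). TRIM25, the ubiquitin ligase of RIG-I, was not called at log2 fold changes of 0.065 (EV), 0.15 (WT) and 0.21 (MUT). DTX3L, a ubiquitin ligase that pairs with PARP9, was higher in WT (0.35) and MUT (0.38), and PLSCR1, a phospholipid scramblase that also enters the nucleus, was higher in MUT (0.26). That call for PLSCR1 was lost in 9 of 25 alternative fits, 4 of them without 1 library (treated MUT replicates 1 and 3, untreated MUT replicate 2 and untreated WT replicate 2), at log2 fold changes of 0.089 to 0.27 (adjusted p 0.00814 to 0.357 over all alternatives, edgeR and DESeq2).

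ISG15 is a ubiquitin-like protein that is joined to others by the activating enzyme UBA7 and ligases such as HERC5, and removed by USP18. All 5 genes of this system rose in EV and WT, and 4 rose in MUT, where 26.1%, 26.3% and 30.4% of all tested genes did. ISG15 itself was at 9.23, 11.9 and 11.5 CPM untreated and 13.8, 17.5 and 18.2 CPM with cytarabine in EV. WT cells gave 10.8, 9.21 and 9.24 CPM untreated and 19.8, 20.7 and 17.4 CPM with cytarabine. MUT cells gave 12.2, 10.5 and 19.6 CPM untreated and 16.7, 18.1 and 21.7 CPM with cytarabine. One untreated MUT library, replicate 3, was within the range of the treated ones, and the log2 fold changes were 0.60 ± 0.18 (EV), 0.98 ± 0.18 (WT) and 0.42 ± 0.18 (MUT; SE, edgeR adjusted p = 0.00997, 1.6e-04 and 0.0519). The EV call was lost in 1 of 25 alternative fits, that without untreated EV replicate 1, at a log2 fold change of 0.49 (adjusted p 6.6e-04 to 0.0600 over all alternatives, edgeR and DESeq2). In MUT, with edgeR adjusted p = 0.0519, ISG15 was called higher in 5 of 25 alternative fits, 3 of them without 1 library (treated EV replicate 1, treated MUT replicate 1 and untreated MUT replicate 3), at log2 fold changes of 0.41 to 0.69 (adjusted p 4.7e-04 to 0.327 over all alternatives, edgeR and DESeq2). Without untreated MUT replicate 3 its log2 fold change there was 0.69. UBA7 was at 0.876, 1.34 and 1.29 CPM untreated and 5.48, 3.995 and 5.26 CPM with cytarabine in EV. The WT values were 0.736, 0.476 and 0.385 CPM untreated and 2.74, 2.97 and 2.51 CPM with cytarabine. The MUT values were 0.802, 1.95 and 2.06 CPM untreated and 6.02, 6.42 and 6.23 CPM with cytarabine. Its treated libraries were all at 2.51 CPM or more and its untreated ones at or below 2.06 CPM, with log2 fold changes of 2.07 ± 0.28 (EV), 2.34 ± 0.32 (WT) and 1.97 ± 0.27 (MUT; SE, edgeR adjusted p = 5.6e-06, 5.6e-06 and 3.9e-06). USP18, which also holds back signalling at the receptor subunit IFNAR2, was at 1.11, 0.876 and 1.60 CPM untreated and 1.96, 2.18 and 2.82 CPM with cytarabine in EV. The WT values were 0.785, 0.952 and 0.550 CPM untreated and 3.66, 3.73 and 3.38 CPM with cytarabine. The MUT values were 1.10, 0.755 and 0.343 CPM untreated and 4.31, 2.44 and 3.09 CPM with cytarabine. The groups did not overlap in any line, and the log2 fold changes were 0.96 ± 0.33 (EV), 2.22 ± 0.33 (WT) and 2.14 ± 0.34 (MUT; SE, edgeR adjusted p = 0.0193, 1.7e-05 and 2.4e-05). The EV call was lost in 3 of 24 alternative fits, those without treated EV replicate 3 and untreated EV replicates 1 and 2, at log2 fold changes of 0.78 to 0.91 (adjusted p 0.00754 to 0.0922 over all alternatives, edgeR and DESeq2). HERC5 was at 0.409, 0.467 and 0.430 CPM untreated and 1.81, 1.44 and 1.67 CPM with cytarabine in EV, the line with the highest levels. In WT it was at 0.0981, 0 and 0.0550 CPM untreated and 0.325, 0.703 and 0.919 CPM with cytarabine. In MUT it was at 0, 0.0629 and 0 CPM untreated and 0.0439, 0.239 and 0.392 CPM with cytarabine, where 1 count stood in 1 of the untreated libraries. The summed counts rose from 3 to 39 in WT, a ratio of CPM of 12.3 with a 95% counting interval of 3.91 to 62.2, and from 1 to 15 in MUT, a ratio of 12.02 with an interval of 1.85 to 506. The fitted log2 fold change in EV was 1.90 ± 0.53 (SE; edgeR adjusted p = 0.00575), and the calls in WT and MUT had edgeR adjusted p = 8.8e-04 and 0.0146. The MUT call was lost in 3 of 23 alternative fits, those without treated MUT replicate 3 and untreated MUT replicates 1 and 3 (adjusted p 0.00386 to 0.0832 over all alternatives, edgeR and DESeq2). HERC5 passed the filter on low counts through treated libraries only, so the filter favoured a rise. HERC6, the neighbour of HERC5 on chromosome 4, rose by 0.57 (EV), 0.55 (WT) and 0.65 (MUT) on the log2 scale.

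Of the effectors that act on RNA, 9 were tested, and 8 (EV), 8 (WT) and 7 (MUT) were higher, against 26.1%, 26.3% and 30.4% of all tested genes. OAS1, one of the synthases of the small messenger that activates RNase L, was at 1.29, 0.935 and 0.553 CPM untreated and 3.96, 4.18 and 5.35 CPM with cytarabine in EV. In WT it was at 0.883, 0.794 and 0.715 CPM untreated and 5.80, 4.54 and 6.38 CPM with cytarabine. In MUT it was at 0.953, 1.07 and 1.31 CPM untreated and 4.09, 3.97 and 3.88 CPM with cytarabine. Every treated library was above every untreated one, with log2 fold changes of 2.27 ± 0.25 (EV), 2.79 ± 0.25 (WT) and 1.84 ± 0.24 (MUT; SE, edgeR adjusted p = 4.2e-07, 2.9e-08 and 2.7e-06). OASL, a family member without that activity, was at 0.643, 0.818 and 0.430 CPM untreated and 2.35, 2.50 and 2.44 CPM with cytarabine in EV. In WT it was at 0.883, 0.794 and 0.495 CPM untreated and 2.78, 2.49 and 2.85 CPM with cytarabine. In MUT it was at 0.251, 0.314 and 0.514 CPM untreated and 2.20, 2.06 and 1.57 CPM with cytarabine. Its log2 fold changes were 1.93 ± 0.30 (EV), 1.89 ± 0.29 (WT) and 2.42 ± 0.32 (MUT; SE, edgeR adjusted p = 2.5e-05, 2.0e-05 and 3.5e-06), again with no overlap. OAS3, which encodes the longest of these enzymes, rose by 0.70 (EV), 1.20 (WT) and 0.76 (MUT). OAS2 was too low to be tested, with summed counts that went from 4 to 16 (EV), 2 to 12 (WT) and 1 to 22 (MUT). In MUT the ratio of CPM for OAS2 was 17.6 with a 95% counting interval of 2.85 to 727. IFIT1, which binds RNA with an unmethylated cap, was at 0.993, 0.584 and 1.29 CPM untreated and 2.44, 3.56 and 3.76 CPM with cytarabine in EV. WT libraries held 0.981, 0.741 and 0.825 CPM untreated and 3.11, 2.65 and 2.80 CPM with cytarabine. MUT libraries held 0.401, 1.13 and 1.37 CPM untreated and 3.16, 2.54 and 2.61 CPM with cytarabine, with no overlap between the groups. Its log2 fold changes were 1.76 ± 0.33 (EV), 1.74 ± 0.33 (WT) and 1.53 ± 0.33 (MUT; SE, edgeR adjusted p = 2.1e-04, 2.4e-04 and 6.2e-04). IFIT2, from the same cluster on chromosome 10, was at 0.351, 0.701 and 0.369 CPM untreated and 0.831, 1.06 and 1.71 CPM with cytarabine in EV. WT libraries held 0.441, 0.423 and 0.165 CPM untreated and 1.16, 1.30 and 1.26 CPM with cytarabine. MUT libraries held 0.251, 0.314 and 0.628 CPM untreated and 0.923, 0.814 and 1.05 CPM with cytarabine. No groups overlapped and the log2 fold changes were 1.34 ± 0.43 (EV), 1.82 ± 0.44 (WT) and 1.22 ± 0.44 (MUT; SE, edgeR adjusted p = 0.0141, 0.00188 and 0.0247). The EV call for IFIT2 was lost in 3 of 24 alternative fits, those without treated EV replicate 3 and untreated EV replicates 1 and 3, at log2 fold changes of 0.98 to 1.19 (adjusted p 0.00844 to 0.105 over all alternatives, edgeR and DESeq2). The MUT call was lost in 4 of 24 alternative fits, 3 of them without 1 library (treated MUT replicate 3 and untreated MUT replicates 1 and 2), at log2 fold changes of 0.96 to 1.21 (adjusted p 0.00897 to 0.105 over all alternatives, edgeR and DESeq2).

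IFIT3, the partner of IFIT1, was at 2.45, 2.45 and 2.52 CPM untreated and 4.21, 4.74 and 4.02 CPM with cytarabine in EV. WT cells gave 2.94, 3.49 and 2.91 CPM untreated and 4.92, 7.40 and 5.42 CPM with cytarabine. MUT cells gave 3.76, 5.35 and 4.51 CPM untreated and 5.01, 5.41 and 5.14 CPM with cytarabine, where the groups overlapped and the untreated level was the highest of the 3 lines. The log2 fold changes were 0.80 ± 0.18 (EV), 0.92 ± 0.17 (WT) and 0.20 ± 0.17 (MUT; SE, edgeR adjusted p = 0.00133, 2.2e-04 and 0.340). IFIT5, the fourth gene of this cluster, was at 20.4 to 33.8 CPM and was not called, at -0.25 (EV), 0.067 (WT) and -0.030 (MUT). The exonuclease ISG20 rose by 0.85 (EV), 0.92 (WT) and 0.64 (MUT). CMPK2, a mitochondrial nucleotide kinase, rose by 0.95 (EV), 0.87 (WT) and 1.94 (MUT). Its EV call was lost in 17 of 24 alternative fits, 14 of them without 1 library (treated EV replicates 1, 2 and 3, untreated EV replicates 2 and 3, treated MUT replicates 1, 2 and 3, untreated MUT replicate 1, treated WT replicates 1, 2 and 3 and untreated WT replicates 1 and 3), at log2 fold changes of 0.64 to 1.01 (adjusted p 8.1e-04 to 0.211 over all alternatives, edgeR and DESeq2). The WT call was lost in 10 of 24 alternative fits, 8 of them without 1 library (treated EV replicate 3, treated MUT replicates 1, 2 and 3, treated WT replicates 1 and 3 and untreated WT replicates 1 and 2), at log2 fold changes of 0.62 to 0.96 (adjusted p 0.0119 to 0.186 over all alternatives, edgeR and DESeq2). Members of the IFIT, OAS, IFITM, GBP, MX, HERC, SAMD9 and IFI44 families are similar in sequence, and how reads with several matches were counted is not given in the sources used here.

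The 5 large GTPases split. GBP2, a guanylate-binding protein, was at 3.68, 2.40 and 2.77 CPM untreated and 6.06, 8.74 and 8.30 CPM with cytarabine in EV. WT cells gave 0.981, 1.43 and 1.37 CPM untreated and 3.02, 2.59 and 3.14 CPM with cytarabine. MUT cells gave 1.60, 1.82 and 1.60 CPM untreated and 5.62, 4.88 and 4.79 CPM with cytarabine. Every treated library exceeded the untreated ones of its line, and the log2 fold changes were 1.38 ± 0.19 (EV), 1.21 ± 0.22 (WT) and 1.61 ± 0.21 (MUT; SE, edgeR adjusted p = 8.7e-06, 1.4e-04 and 2.2e-06). GBP1 rose by 0.58 (EV), 0.96 (WT) and 0.44 (MUT). Its EV call was lost in 1 of 25 alternative fits, that without treated EV replicate 2, at a log2 fold change of 0.42 (adjusted p 0.00394 to 0.0616 over all alternatives, edgeR and DESeq2). Its MUT call was lost in 10 of 25 alternative fits, 5 of them without 1 library (treated MUT replicates 2 and 3 and untreated MUT replicates 1, 2 and 3), at log2 fold changes of 0.31 to 0.47 (adjusted p 0.0273 to 0.182 over all alternatives, edgeR and DESeq2). GBP3 was called in WT, at 0.51, and was at 0.045 in EV and 0.13 in MUT, with no difference between lines called. The GBP3 call was lost in 2 of 25 alternative fits, those without treated WT replicate 2 and untreated WT replicate 1, at log2 fold changes of 0.43 to 0.48 (adjusted p 0.00145 to 0.0805 over all alternatives, edgeR and DESeq2). MX1, an inhibitor of RNA viruses that is a usual marker of interferon exposure, was at 0.483 to 1.29 CPM in all libraries and was called in no line, at -0.28 (EV), 0.22 (WT) and 0.37 (MUT). Its paralog MX2 was higher in EV (2.30) and MUT (1.46) and at -0.14 in WT, from 0.0501 to 1.19 CPM. The MUT call for MX2 was lost in 6 of 24 alternative fits, 5 of them without 1 library (treated MUT replicates 2 and 3, untreated MUT replicates 1 and 3 and untreated WT replicate 2), at log2 fold changes of 0.91 to 1.45 (adjusted p 0.00122 to 0.155 over all alternatives, edgeR and DESeq2).

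Of the membrane and secreted members 6 were tested, and BST2, IFITM1, IFI6 and LGALS3BP were higher in all 3 lines, where 18.9% of all tested genes were. BST2, or tetherin, holds enveloped virus at the cell surface. It was at 0.643, 0.584 and 0.676 CPM untreated and 5.28, 4.56 and 6.07 CPM with cytarabine in EV. The WT values were 0.245, 0.317 and 0.440 CPM untreated and 2.13, 1.24 and 1.69 CPM with cytarabine. The MUT values were 0.602, 0.377 and 1.26 CPM untreated and 5.54, 3.35 and 4.75 CPM with cytarabine. The lowest treated library, at 1.24 CPM in WT, was about level with the highest untreated one, at 1.26 CPM in MUT, but within each line the groups were apart. The log2 fold changes were 3.06 ± 0.33 (EV), 2.33 ± 0.38 (WT) and 2.59 ± 0.32 (MUT; SE, edgeR adjusted p = 4.1e-07, 5.0e-05 and 1.4e-06). IFITM1, which hinders virus entry at the plasma membrane, was at 0.117, 0.0584 and 0.123 CPM untreated and 0.440, 0.250 and 0.428 CPM with cytarabine in EV. The WT values were 0, 0 and 0.0550 CPM untreated and 0.510, 0.216 and 0.532 CPM with cytarabine. The MUT values were 0.1003, 0 and 0 CPM untreated and 0.659, 0.766 and 0.741 CPM with cytarabine. IFITM1 passed the filter on low counts through treated libraries only, so the filter favoured a rise. Summed counts rose from 5 to 23 in EV, a ratio of CPM of 3.88 with a 95% counting interval of 1.44 to 13.1. They rose from 1 to 26 in WT, a ratio of 24.6 (4.04 to 1009), and from 2 to 48 in MUT, a ratio of 19.2 (5.04 to 163). The edgeR adjusted p values were 0.0344, 7.0e-04 and 1.6e-04, and the EV call was lost in 7 of 23 alternative fits, 5 of them without 1 library (treated EV replicates 1 and 3 and untreated EV replicates 1, 2 and 3), at log2 fold changes of 1.61 to 2.03 (adjusted p 0.0274 to 0.124 over all alternatives, edgeR and DESeq2). IFITM1 lies within the interval that the table gives for IFITM2. IFITM2 was not called, at log2 fold changes of 0.015 (EV), 0.11 (WT) and 0.097 (MUT). Neither was IFITM3, at 0.012 (EV), 0.12 (WT) and 0.054 (MUT). In EV its libraries held 84.1, 84.8 and 81.8 CPM untreated and 98.9, 71.5 and 82.02 CPM with cytarabine, and the groups overlapped. IFI6, a small membrane protein, rose by 0.83 (EV), 0.66 (WT) and 0.61 (MUT) and LGALS3BP, a secreted glycoprotein that binds galectins, by 0.38 (EV), 0.54 (WT) and 0.46 (MUT). IFI27 went from 11 to 19 (EV), 10 to 16 (WT) and 15 to 25 (MUT) summed counts. RTP4 went from 15 to 34, from 3 to 5 and from 7 to 13 counts in the same order.

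The other tested members were SAMD9, SAMD9L, IFI35, IFI44 and IFI44L. SAMD9L, which restrains translation and growth, was at 3.51, 4.21 and 4.92 CPM untreated and 11.1, 16.1 and 13.8 CPM with cytarabine in EV. In WT it was at 4.46, 3.60 and 3.79 CPM untreated and 16.4, 16.2 and 13.2 CPM with cytarabine. In MUT it was at 4.36, 4.21 and 2.63 CPM untreated and 16.3, 18.9 and 19.04 CPM with cytarabine. The groups were far apart in each line, with log2 fold changes of 1.69 ± 0.18 (EV), 1.94 ± 0.18 (WT) and 2.27 ± 0.18 (MUT; SE, edgeR adjusted p = 2.9e-07, 4.3e-08 and 4.4e-09). SAMD9, its neighbour on chromosome 7, rose by nearly the same amount in each line, 1.19 (EV), 1.18 (WT) and 1.20 (MUT). IFI44 was at 0.409, 0.292 and 0.861 CPM untreated and 0.733, 0.687 and 1.24 CPM with cytarabine in EV. WT libraries held 0.883, 0.794 and 1.15 CPM untreated and 2.51, 2.05 and 1.89 CPM with cytarabine. MUT libraries held 0.201, 0.126 and 0.0571 CPM untreated and 0.703, 0.910 and 1.002 CPM with cytarabine. It was called in WT and MUT, at log2 fold changes of 0.79 ± 0.41 (EV), 1.18 ± 0.36 (WT) and 2.68 ± 0.50 (MUT; SE, edgeR adjusted p = 0.122, 0.00999 and 1.6e-04). IFI44L, the next gene on chromosome 1, was at 0, 0.0584 and 0.307 CPM untreated and 0.244, 0.437 and 0.641 CPM with cytarabine in EV and at 0.343, 0.106 and 0.220 CPM untreated and 0.510, 0.270 and 0.532 CPM with cytarabine in WT. In MUT it had no count in any untreated library and 40 counts over the treated ones, at 0.923, 0.527 and 0.349 CPM. Against a floor of 3 counts over the untreated group this is at least 10.7-fold higher, with edgeR adjusted p = 3.8e-04. IFI44L too passed the filter on low counts through treated libraries only. With that member set at its bound the median over the members in MUT stayed at 0.65. IFI35 was higher in WT, at 1.85. It was at 1.07 in EV and 1.16 in MUT, with no difference between lines called. The WT call was lost in 3 of 23 alternative fits, those without treated WT replicate 2 and untreated WT replicates 1 and 2, at log2 fold changes of 1.10 to 1.69 (adjusted p 0.0143 to 0.202 over all alternatives, edgeR and DESeq2). XAF1, a promoter of cell death, went from 0 to 21 counts in EV, at least 5.91-fold higher against the same floor of 3 counts. In WT it went from 4 to 23 counts, a ratio of CPM of 5.44 with a 95% counting interval of 1.86 to 21.6, and in MUT from 2 to 18, a ratio of 7.21 (1.73 to 64.1). The treated MUT libraries held 16, 0 and 2 counts, so that without replicate 1 there were 2 counts against 2 untreated.

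**Figure D2:**
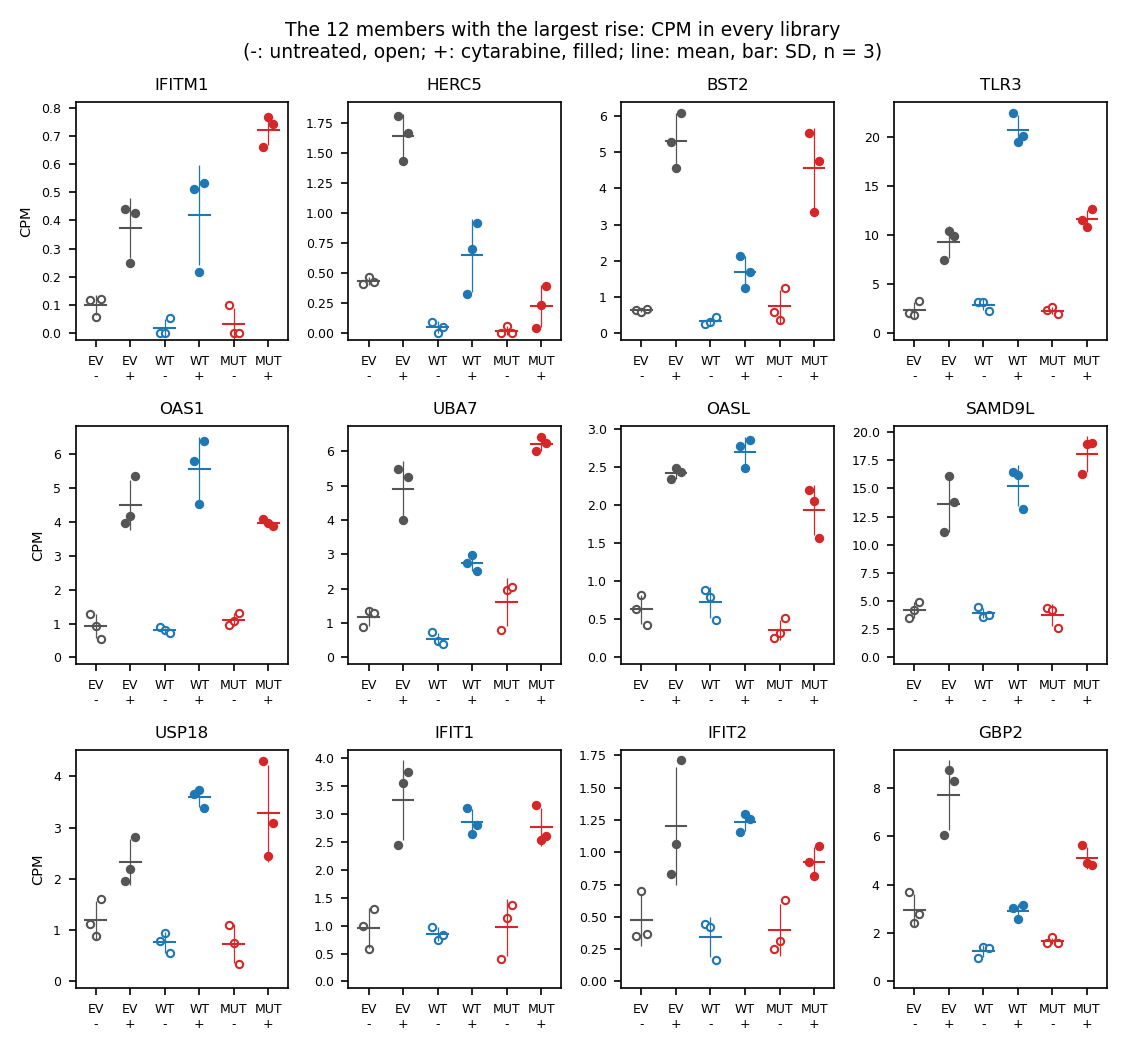
CPM (y axis, own scale in each panel) in each library of the 6 groups (x axis, - untreated and + cytarabine) for the 12 members with the largest mean log2 fold change among those called in all 3 lines; bars are mean and SD of 3 libraries. Filled points (cytarabine) lie above the open points (untreated) of the same line in every panel except MUT for HERC5, where 1 treated library at 0.0439 CPM lies below an untreated one at 0.0629 CPM.

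Among the genes that passed the filter, rises were larger at low abundance, for the members as for all genes. Per kilobase of exon, the highest untreated levels were 38.7 CPM per kb for LGALS3BP, 24.0 for ADAR, 21.5 for IFITM3 and 15.4 for DTX3L, and the lowest were 0.00406 for OAS2, 0.00570 for XAF1 and 0.00990 for IFI44L. Genes were then binned by mean log2 CPM over all libraries. At a mean under 1, 9 (EV), 10 (WT) and 11 (MUT) of 14 members were higher, against 25.2%, 22.5% and 28.2% of all 4544 genes tested in that bin. The filter kept a gene of this bin if the libraries of a single group held enough counts, and dropped those low in nearly all. A near-silent gene could thus enter through its treated libraries, so the bin's counts and medians lean towards rises, for members and all genes alike. Between 1 and 4, 15, 16 and 12 of 17 members were higher in the same order, against 37.7%, 37.3% and 42.2% of 4631 genes. At 4 and above, 6, 8 and 8 of 16 were higher, against 20.7%, 22.5% and 25.5% of 9051 genes. Over these bins the members' median log2 fold change was 1.55, 0.83 and 0.055 for EV. For WT it was 1.78, 0.92 and 0.16, and for MUT 2.04, 0.64 and 0.23. All tested genes had medians of 0.56, 0.23 and -0.13 (EV), 0.32, 0.22 and -0.10 (WT) and 0.45, 0.29 and -0.11 (MUT). In this last bin IFITM3, TRIM25, ADAR, IFITM2, IFIT5, IRF1 and SP100 were called higher in no line. EIF2AK2, LGALS3BP, OAS3, STAT2, SAMD9 and TRIM21 rose in all 3, and DTX3L, IFI16 and PLSCR1 in only some.

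**Figure D3:**
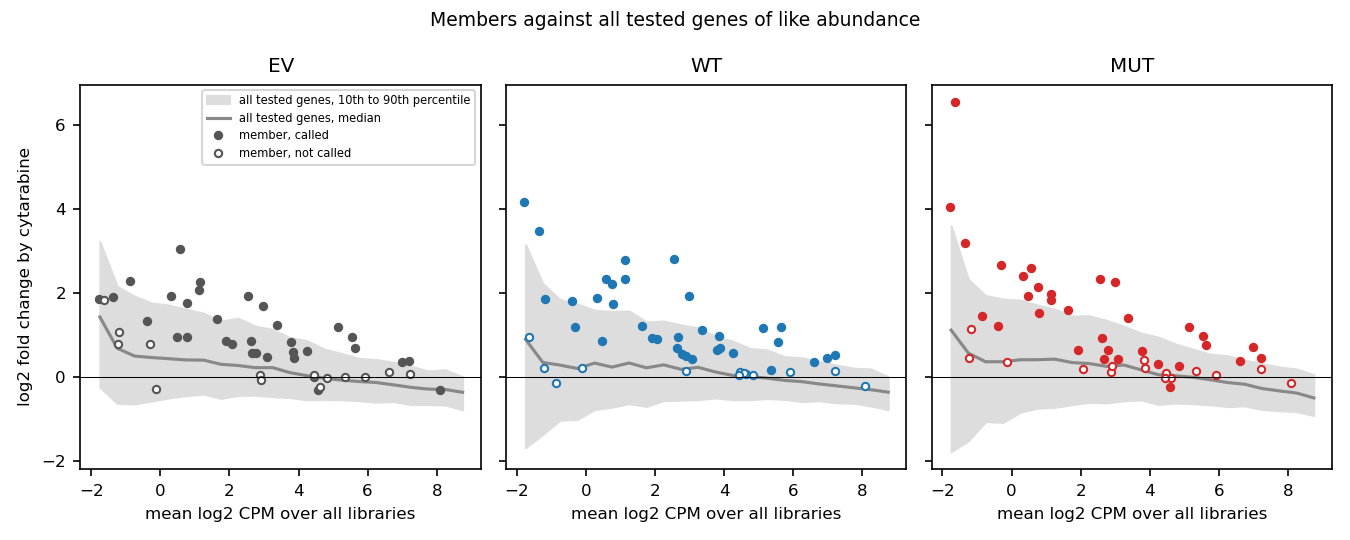
Log2 fold change by cytarabine (y axis) against the mean log2 CPM over all libraries (x axis) in EV, WT and MUT, with members as points (filled: called) over the median and the 10th to 90th percentile of all tested genes in bins of 0.5. Most members lie above the grey median at low and middle abundance, and members lie closer to it at the right.

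No member's cytarabine effect was called different between the lines in the fit of all libraries, while OAS3 and IRF1 were in some alternative fits. In the test of the difference of cytarabine effects between MUT and EV, 0 of 47 members were called with edgeR's quasi-likelihood test, where 0.154% of all tested genes were higher and 0.0604% lower. DESeq2 called 0 as well, and 7 members (14.9%) had an unadjusted p under 0.05 in edgeR, against 15.8% of all tested genes. Between MUT and WT, 0 members were called in edgeR, against 0.51% higher and 0.494% lower of all genes, and 11 (23.4%) had an unadjusted p under 0.05 against 15.4% of all genes. DESeq2 called 1 member there, OAS3, with a smaller effect in MUT (log2 difference -0.50, DESeq2 adjusted p = 0.0391). Between WT and EV, 0 were called in edgeR, against 0.143% higher and 0.143% lower, 7 (14.9%) had an unadjusted p under 0.05 against 9.96% of all genes, and DESeq2 called 0. A fit of only the groups compared called OAS3 there, at a log2 difference of 0.50 (edgeR adjusted p = 0.0137). These 3 comparisons share libraries. Leaving out untreated MUT replicate 3 gave a call for OAS3 in both comparisons with WT, at log2 differences of -0.61 (edgeR adjusted p = 0.0143) between MUT and WT and 0.51 (0.0447) between WT and EV. Leaving out untreated MUT replicate 2 gave a call for IRF1 between MUT and WT, at -0.46 (0.0460), and for OAS3 between WT and EV, at 0.51 (0.0375). The smallest adjusted p among the members was 0.114, for IFI44L between MUT and WT, where the untreated MUT libraries hold no count.

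Intervals show how large such differences could still be. For TLR3 the effect in WT exceeded that in EV by 0.88 on the log2 scale, with a 95% interval of 0.31 to 1.44 and edgeR adjusted p = 0.256. For USP18 it was 1.26 (0.28 to 2.24) between WT and EV and 1.17 (0.18 to 2.16) between MUT and EV, at edgeR adjusted p = 0.370 and 0.237. IFIT3, which was called in EV and WT and not in MUT, had a difference of -0.60 (-1.13 to -0.076) between MUT and EV and of -0.72 (-1.23 to -0.21) between MUT and WT, at edgeR adjusted p = 0.254 and 0.151. For GBP3 the difference between WT and EV was 0.46 (-0.043 to 0.97), for DDX58 that between MUT and WT was -0.47 (-0.82 to -0.12) and for IRF1 that between WT and EV was 0.42 (0.13 to 0.71). None of these passed the adjustment, with edgeR adjusted p = 0.550, 0.178 and 0.292.

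Without treatment, the lines differed in a minority of the members. MUT against EV gave 3 members higher and 7 lower, where 9.88% and 10% of all tested genes were higher and lower. MUT against WT gave 8 higher and 3 lower, against 11.7% and 9.54%. WT against EV gave 0 higher and 9 lower, against 4.3% and 7.36%. At an unadjusted p under 0.05 in edgeR the 3 comparisons gave 15, 14 and 13 members (31.9%, 29.8% and 27.7%). The shares of all tested genes were close to these, at 33.0%, 33.5% and 24.0% in the same order. DESeq2 called 11, 11 and 10 members. Each line serves in 2 of these comparisons, so they are not independent, and in a fit with only the 2 groups compared the count of 10 for MUT against EV was 2. LGALS3BP, lowest in WT, was at 160.01, 158 and 162 CPM in untreated EV. WT cells held 83.5, 82.3 and 75.6 CPM, and MUT cells held 169, 137 and 165 CPM. The WT libraries were about at 1 level and well below all others, with a log2 fold change of -0.99 ± 0.080 (SE; edgeR adjusted p = 8.5e-08) against EV. MUT exceeded WT by 0.97 ± 0.080 (SE; edgeR adjusted p = 8.6e-08). IFITM3 was highest in EV, whose libraries at 81.8 to 84.8 CPM lay above all WT and MUT libraries. Against EV, its log2 fold change was -0.84 ± 0.12 (SE; edgeR adjusted p = 5.8e-05) for WT. For MUT it was -0.64 ± 0.12 (SE; edgeR adjusted p = 6.7e-04). IFITM2 was lower in MUT at -0.50 ± 0.15 (SE; edgeR adjusted p = 0.0279), a call lost in 7 of 25 alternative fits, 6 of them without 1 library (untreated EV replicates 1, 2 and 3, untreated MUT replicates 1 and 2 and untreated WT replicate 2), at log2 fold changes of -0.52 to -0.31 (adjusted p 0.00248 to 0.146 over all alternatives, edgeR and DESeq2). The WT libraries of IFITM3 were at 46.2, 48.5 and 45.3 CPM and the MUT libraries at 60.3, 41.3 and 58.5 CPM.

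OAS3 was lowest in untreated WT, at 26.7, 26.5 and 28.3 CPM. Untreated EV libraries held 37.8, 40.6 and 40.4 CPM and MUT libraries 44.2, 55.7 and 36.7 CPM. The WT libraries were below all others, with log2 fold changes of -0.54 ± 0.11 (SE; edgeR adjusted p = 0.00247) between WT and EV and 0.74 ± 0.11 (SE; edgeR adjusted p = 9.3e-05) between MUT and WT. HERC6 was lowest in WT too, with WT against EV at -0.63 ± 0.14 (SE; edgeR adjusted p = 0.00602) and MUT against WT at 0.45 ± 0.14 (SE; edgeR adjusted p = 0.0335). The latter call was lost in 6 of 25 alternative fits, 4 of them without 1 library (untreated MUT replicates 1 and 2 and untreated WT replicates 1 and 3), at log2 fold changes of 0.35 to 0.45 (adjusted p 0.0172 to 0.169 over all alternatives, edgeR and DESeq2). UBA7 was lower in WT than in EV, at -1.11 ± 0.35 (SE; edgeR adjusted p = 0.0449) and higher in MUT than in WT, at 1.55 ± 0.34 (SE; edgeR adjusted p = 0.00272). The first of these was lost in 14 of 25 alternative fits, 12 of them without 1 library (treated EV replicates 1 and 3, untreated EV replicates 2 and 3, treated MUT replicates 1, 2 and 3, treated WT replicates 1, 2 and 3 and untreated WT replicates 2 and 3), at log2 fold changes of -1.11 to -0.93 (adjusted p 0.0113 to 0.169 over all alternatives, edgeR and DESeq2). The second was lost in 1 of 25 alternative fits, that of only the groups compared, at a log2 fold change of 1.54 (adjusted p 1.2e-04 to 0.0796 over all alternatives, edgeR and DESeq2). GBP2 was highest in EV, and differed by -1.23 ± 0.22 (SE; edgeR adjusted p = 9.5e-04) in WT and by -0.82 ± 0.22 (SE; edgeR adjusted p = 0.0121) in MUT. The MUT call was lost in 2 of 25 alternative fits, 1 of them without 1 library (untreated EV replicate 1), at log2 fold changes of -0.82 to -0.62 (adjusted p 0.00824 to 0.0973 over all alternatives, edgeR and DESeq2). HERC5, with 3 counts over the untreated WT and 1 over the untreated MUT libraries, was lower than in EV in both, at edgeR adjusted p = 0.0234 and 0.00570. The WT call for HERC5 was lost in 5 of 23 alternative fits, those without untreated EV replicates 1, 2 and 3 and untreated WT replicates 2 and 3 (adjusted p 0.0150 to 0.102 over all alternatives, edgeR and DESeq2). IFI44 and IFI44L were lowest in untreated MUT. For IFI44, MUT differed by -2.79 ± 0.50 (SE; edgeR adjusted p = 6.2e-04) from WT and by -1.94 ± 0.55 (SE; edgeR adjusted p = 0.0175) from EV, where the call was lost in 2 of 23 alternative fits, those without untreated EV replicate 3 and untreated MUT replicate 3, at log2 fold changes of -1.58 to -1.38 (adjusted p 0.0126 to 0.148 over all alternatives, edgeR and DESeq2). For IFI44L, with 0 counts in untreated MUT and 13 in untreated WT, MUT was at least 4.02-fold lower against the floor of 3 counts over the group, at edgeR adjusted p = 0.0225. That call was lost in 2 of 23 alternative fits, those without untreated MUT replicate 1 and untreated WT replicate 1 (adjusted p 0.0107 to 0.0746 over all alternatives, edgeR and DESeq2). IFIT3 was highest in untreated MUT, by 0.87 ± 0.18 (SE; edgeR adjusted p = 0.00259) over EV, a call lost in 1 of 25 alternative fits, at a log2 fold change of 0.86 (adjusted p 8.1e-04 to 0.0511 over all alternatives, edgeR and DESeq2). The call of IFIT3 for MUT over WT was lost in 5 of 25 alternative fits, 3 of them without 1 library (untreated MUT replicate 2 and untreated WT replicates 1 and 3). Log2 fold changes there were 0.44 to 0.54 (adjusted p 0.0164 to 0.159 over all alternatives, edgeR and DESeq2). IFIH1 was higher in MUT than in WT by 0.68 ± 0.13 (SE; edgeR adjusted p = 9.0e-04).

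**Figure D4:**
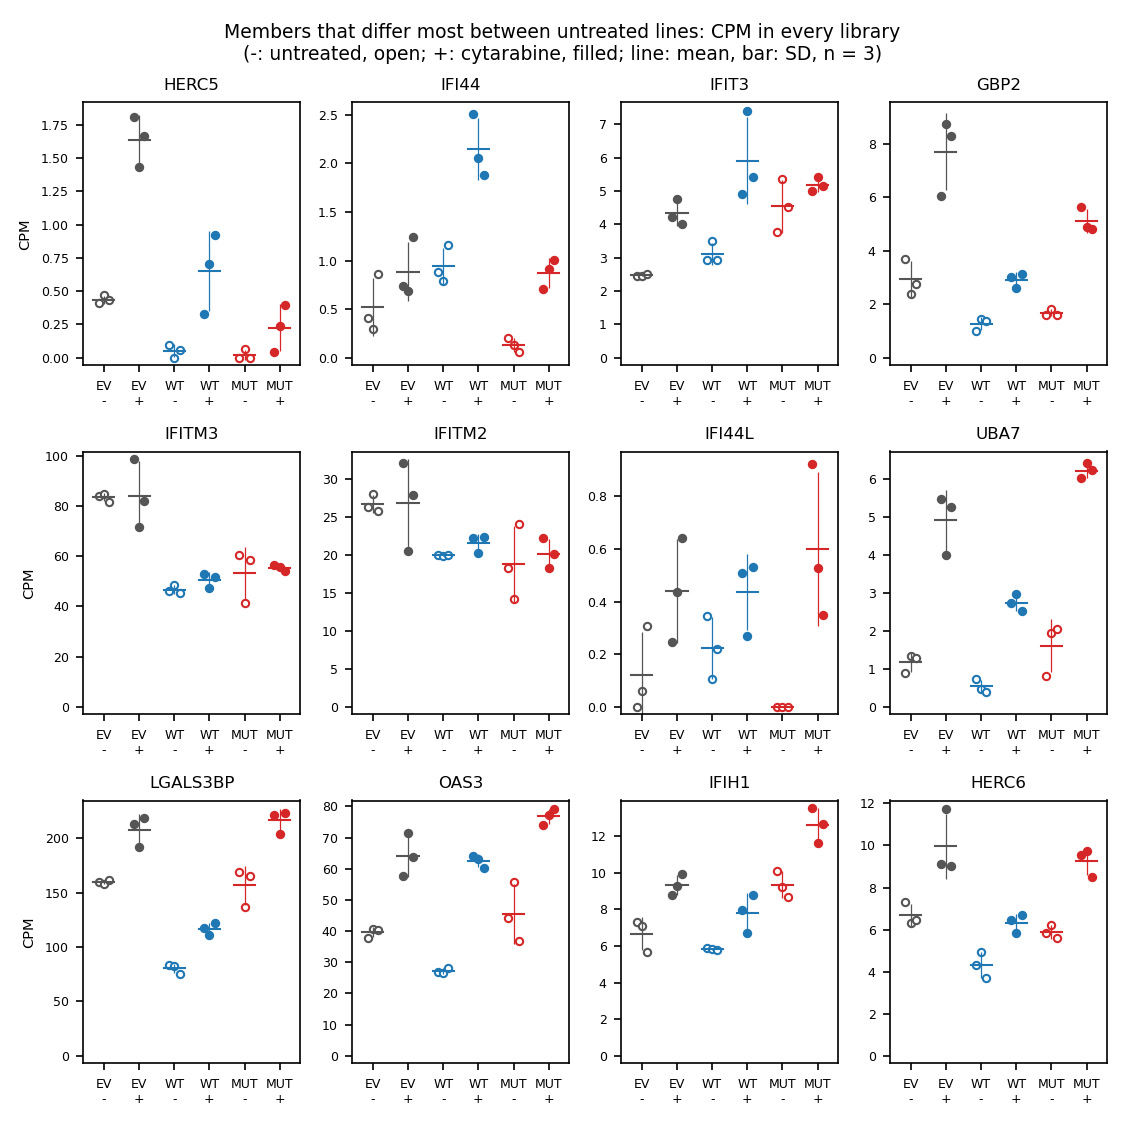
CPM (y axis, own scale in each panel) in each library of the 6 groups (x axis, - untreated and + cytarabine) for the members with the largest called differences between untreated lines; bars are mean and SD of 3 libraries. LGALS3BP and HERC6 are lowest in WT with and without cytarabine, and IFITM3 is highest in EV.

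With cytarabine, MUT against EV gave 6 members higher and 5 lower, against 6.85% and 7.13% of all tested genes. MUT against WT gave 9 higher and 5 lower, against 10.4% and 9.48%. WT against EV gave 4 higher and 6 lower, against 7.41% and 9.12%. These too share libraries. Without 1 library, 6 to 15, 9 to 16 and 7 to 11 members were called in the same order. The lowest count for MUT against EV, 6, was that without treated MUT replicate 3, and it was 7 without treated EV replicate 3, treated MUT replicate 1 or treated MUT replicate 2. The lowest for MUT against WT, 9, was that without treated MUT replicate 1. TLR3 was highest in treated WT, by 1.16 ± 0.16 (SE; edgeR adjusted p = 6.7e-05) over EV, with MUT against WT at -0.83 ± 0.16 (SE; edgeR adjusted p = 0.00108). BST2 was lowest in treated WT, at -1.64 ± 0.29 (SE; edgeR adjusted p = 5.7e-04) against EV, and MUT was above WT by 1.42 ± 0.29 (SE; edgeR adjusted p = 0.00163). GBP2 was likewise lowest in treated WT, at -1.39 ± 0.19 (SE; edgeR adjusted p = 5.2e-05) against EV. LGALS3BP kept the low WT level, at -0.83 ± 0.079 (SE; edgeR adjusted p = 5.6e-07) against EV. IFIH1, EIF2AK2 and CMPK2 were highest in treated MUT. EIF2AK2 exceeded EV there by 0.39 ± 0.087 (SE; edgeR adjusted p = 0.00584) and WT by 0.36 ± 0.087 (SE; edgeR adjusted p = 0.00610). IFIH1 exceeded WT by 0.69 ± 0.12 (SE; edgeR adjusted p = 5.3e-04), and CMPK2 exceeded EV by 1.54 ± 0.33 (SE; edgeR adjusted p = 0.00380). The call of IFIH1 for MUT over EV was lost in 4 of 25 alternative fits (adjusted p 0.0137 to 0.0907 over all alternatives, edgeR and DESeq2). That of CMPK2 for MUT over WT was lost in 6 of 24 (0.00280 to 0.143). Each of these fits left out 1 treated library. DDX58, the RIG-I gene, was lower in treated MUT than in treated WT, at -0.67 ± 0.12 (SE; edgeR adjusted p = 4.2e-04). HERC5 remained highest in EV, with MUT at -2.83 ± 0.56 (SE; edgeR adjusted p = 0.00206) against it.

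The genes that make and relay the interferon signal were taken from a further list of 56 symbols, of which 42 were in the table and 41 were tested. With cytarabine 10 rose and 8 fell in EV (24.4% and 19.5% of the list, against 26.1% and 22.9% of all tested genes). In WT 15 rose and 5 fell (36.6% and 12.2%, against 26.3% and 22.7%). In MUT 10 rose and 7 fell (24.4% and 17.1%, against 30.4% and 25.9%). The list's median log2 fold change was 0.024 (EV), 0.091 (WT) and 0.13 (MUT), beside 0.051, 0.026 and 0.054 for all tested genes. The receptor subunit IFNAR2 rose by 0.46 (EV), 0.68 (WT) and 0.52 (MUT), while IFNAR1 (EV -0.044, WT 0.15, MUT 0.21) was not called. The EV call for IFNAR2 was lost in 3 of 25 alternative fits, those without treated EV replicate 3 and untreated EV replicates 1 and 2, at log2 fold changes of 0.26 to 0.45 (adjusted p 0.00800 to 0.176 over all alternatives, edgeR and DESeq2). Its MUT call was lost in 1 of 25 alternative fits, that without untreated MUT replicate 1, at a log2 fold change of 0.39 (adjusted p 0.00149 to 0.0502 over all alternatives, edgeR and DESeq2). IFNAR1 was called higher in MUT in 3 of 25 alternative fits, 2 of them without 1 library (treated EV replicates 1 and 2), at log2 fold changes of 0.21 to 0.23 (adjusted p 0.0127 to 0.231 over all alternatives, edgeR and DESeq2). Among the kinases of the receptor, JAK1 was not called in any line and TYK2 was called in WT, at 0.23 ± 0.095 (SE; edgeR adjusted p = 0.0491). In EV and MUT it was at 0.084 and 0.13, not called. The call for TYK2 was lost in 15 of the alternative fits, 13 of them without 1 library. On the sensing side, CGAS, which encodes the cytosolic DNA sensor cGAS, was not called (EV 0.099, WT 0.28, MUT 0.23). It was called higher in WT in 5 of 25 alternative fits, 3 of them without 1 library (untreated MUT replicates 2 and 3 and treated WT replicate 3), at log2 fold changes of 0.28 to 0.36 (adjusted p 0.00519 to 0.248 over all alternatives, edgeR and DESeq2), and in MUT in 1 of 25 alternative fits, that without untreated MUT replicate 3, at a log2 fold change of 0.39 (adjusted p 0.00351 to 0.785 over all alternatives, edgeR and DESeq2). MAVS, the mitochondrial adaptor of RIG-I and MDA5, rose by 0.29 (EV), 0.34 (WT) and 0.51 (MUT). The EV call for MAVS was lost in 3 of 25 alternative fits, 2 of them without 1 library (treated EV replicate 2 and untreated EV replicate 3), at log2 fold changes of 0.20 to 0.26 (adjusted p 0.00146 to 0.106 over all alternatives, edgeR and DESeq2). TBK1 fell in all 3 lines, with log2 fold changes of -0.41 (EV), -0.35 (WT) and -0.25 (MUT). Its MUT call was lost in 1 of 25 alternative fits, that of only the groups compared, at a log2 fold change of -0.25 (adjusted p 1.7e-04 to 0.0761 over all alternatives, edgeR and DESeq2). Its relative IKBKE fell too, with -0.80 ± 0.15 (EV), -0.57 ± 0.15 (WT) and -1.33 ± 0.15 (MUT; SE, edgeR adjusted p = 1.8e-04, 0.00363 and 3.9e-07). IRF3, the factor these kinases activate, was not called (EV -0.010, WT -0.00616, MUT -0.24). A lower level in MUT was called in 9 of 25 alternative fits, 6 of them without 1 library (treated EV replicates 1 and 2, treated MUT replicate 3, untreated MUT replicates 1 and 2 and untreated WT replicate 2), at log2 fold changes of -0.33 to -0.24 (adjusted p 0.0125 to 0.266 over all alternatives, edgeR and DESeq2). The 5 largest changes were picked only among the list's genes called in all 3 lines in 1 direction. Beside IKBKE they were PTPN2, a phosphatase of the JAK and STAT proteins (EV -1.04, WT -0.94, MUT -1.16), and IRF5 (EV 1.27, WT 1.64, MUT 1.78). The others were the interferon lambda receptor subunit IFNLR1 (EV 0.75, WT 1.11, MUT 0.94) and SAMHD1, a hydrolase of deoxynucleotides that also cleaves activated cytarabine (EV 0.86, WT 0.87, MUT 0.82). The EV call for IRF5 was lost in 3 of 24 alternative fits, those without treated EV replicate 3 and untreated EV replicates 1 and 3, at log2 fold changes of 0.97 to 1.26 (adjusted p 0.0121 to 0.126 over all alternatives, edgeR and DESeq2).

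**Figure D5:**
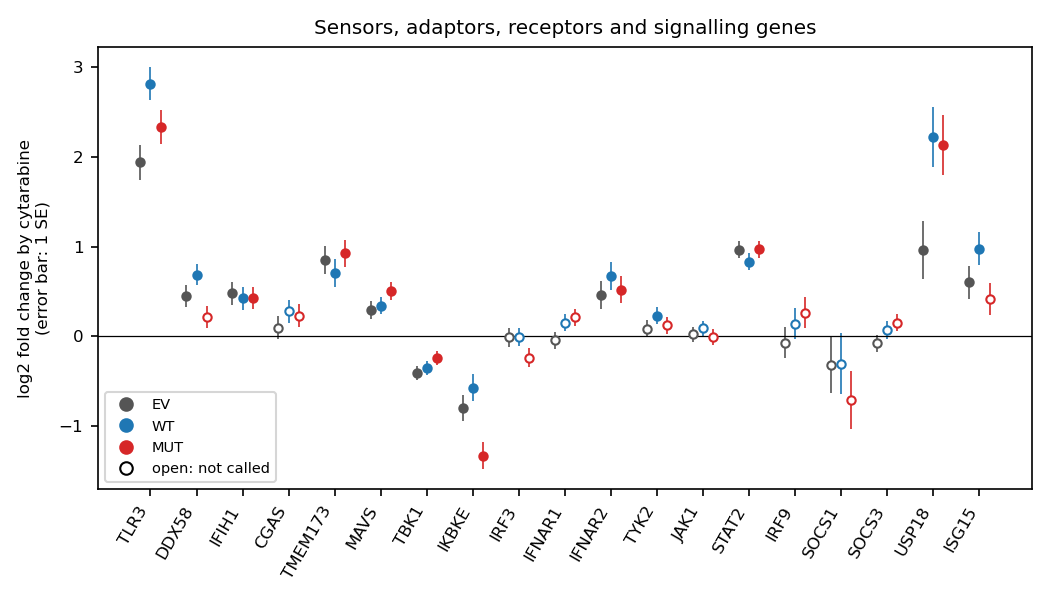
Log2 fold change by cytarabine (y axis, error bars 1 SE) in EV (grey), WT (blue) and MUT (red) for genes along the pathway from sensors to signal transducers and feedback genes (x axis); open points did not pass the test. STAT2 lies near 0.9 in all 3 lines, and TBK1 and IKBKE lie below 0.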

How the data were processed

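RNA libraries of 18 U2OS cultures were read, 3 in each of 6 groups, grouped and numbered by the sample titles. Per the labels, total RNA was extracted with a column kit and libraries were made with a NEBNext Ultra kit. The submitters' processing notes list CASAVA, STAR 2.6.1d and hg38, with no role, and the counting tool and its use of strand are not given in the sources used here, so reads of a gene and of an overlapping antisense gene cannot be told apart. The authors deposited estimated counts per gene symbol, not normalized, of which 70.4% were whole numbers. They also deposited a table of normalized signal, which was used only to derive their factor for each library. Among the symbols of the table of estimated counts, 26 look like dates or repeat, and none of these is named.

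Estimated counts were rounded and fitted with edgeR 4.0.16 (quasi-likelihood, filterByExpr, TMM) in R 4.3.3, all 18 libraries in 1 fit with a coefficient per group. There were 12 contrasts, with Benjamini-Hochberg adjustment over 18226 genes. CPM values are per M of the TMM-scaled library size, and SE is the absolute log2 fold change over the square root of F; intervals of log2 differences use the t distribution with the test's degrees of freedom. Ratios of low summed counts carry exact 95% intervals for counting error only, and a group with no count was set at a floor of 3 counts over the group. With 3 libraries a group, p-values set a difference against the spread between libraries, estimated over all 18 libraries in 1 fit. The wider spread of the untreated MUT libraries is thus averaged with that of the other groups. Promoter windows are RefSeq's, and exonic lengths are GENCODE's.

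Members, role groups and lists were chosen with earlier results of these data known. Values in every library were due for the 12 members with the largest mean change among those called in all 3 lines, the 6 with the largest called difference in each untreated comparison with no overlap, every member called lower or called in a difference of effects, and the sensors, STAT2, IRF1, IRF7, IRF9, USP18 and ISG15. The 5 largest changes of each further list, among genes called in all 3 lines in 1 direction, were named too. So were the receptor, kinase and adaptor genes, and other members are given by role. A gene of the signalling list and a blood marker are not reported here, though the list's counts include the former. Alternatives were other scaling factors, other filters on low counts, DESeq2 1.42.0, only the groups compared, a replicate block and leaving out each library.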

Additional observations from a re-analysis of the deposited data

Results flagged for a closer look

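In edgeR's fit of all libraries, differences of cytarabine effects between lines were called for 4 of the 53 other interferon-answering genes tested. They were 3 lower between MUT and WT, where 0.494% of all tested genes were, and 2 higher between WT and EV, where 0.143% were, with APOL1 in both. These 4 were named after their values were seen. APOL1, a lipoprotein component that kills trypanosomes, rose by 1.01 (EV), 1.68 (WT) and 0.99 (MUT) on the log2 scale. The effect in MUT minus that in WT was -0.69 ± 0.14 (SE; edgeR adjusted p = 0.0260). That call was lost without treated MUT replicates 1 and 3, treated WT replicate 3 and untreated WT replicates 1 and 2, and with only the groups compared; over all alternatives the difference was -0.83 to -0.58 and the adjusted p 2.1e-04 to 0.0863 (edgeR and DESeq2). Between WT and EV the difference was 0.67 ± 0.14 (SE; edgeR adjusted p = 0.0477). This one was lost without treated EV replicates 1, 2 and 3, untreated EV replicates 1, 2 and 3, treated MUT replicates 1, 2 and 3, untreated MUT replicate 1, treated WT replicates 1, 2 and 3 and untreated WT replicates 1 and 2, and with the authors' factors, with no filter on low counts and over genes averaging 50 counts or more; over all alternatives the difference was 0.56 to 0.80 and the adjusted p 0.00237 to 0.210 (edgeR and DESeq2).

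PARP10, a mono-ADP-ribosyltransferase, rose by 0.76 (EV), 1.07 (WT) and 0.42 (MUT), with a difference between MUT and WT of -0.64 ± 0.13 (SE; edgeR adjusted p = 0.0256). The call was lost without treated MUT replicate 1, treated WT replicates 2 and 3 and untreated WT replicates 1 and 2, and with only the groups compared; over all alternatives the difference was -0.77 to -0.53 and the adjusted p 3.0e-04 to 0.0863 (edgeR and DESeq2). PSMB8, a catalytic subunit of the immunoproteasome, was at 0.48 (EV), 0.61 (WT) and 0.11 (MUT), where the MUT effect was not called (edgeR adjusted p = 0.232). Its difference between MUT and WT was -0.50 ± 0.10 (SE; edgeR adjusted p = 0.0272), and this call was lost without treated MUT replicates 1, 2 and 3, treated WT replicates 2 and 3 and untreated WT replicates 1, 2 and 3, and with only the groups compared; over all alternatives the difference was -0.59 to -0.45 and the adjusted p 3.9e-04 to 0.0863 (edgeR and DESeq2). APOL6, a cytosolic relative of APOL1, rose by 0.60 (EV), 1.37 (WT) and 1.29 (MUT), with a difference between WT and EV of 0.77 ± 0.15 (SE; edgeR adjusted p = 0.0375). It was lost without treated EV replicates 1 and 3, untreated EV replicates 1 and 3, treated MUT replicates 1 and 3, treated WT replicates 1, 2 and 3 and untreated WT replicates 1, 2 and 3; over all alternatives the difference was 0.69 to 0.89 and the adjusted p 0.00103 to 0.136 (edgeR and DESeq2). APOL1 and APOL6 lie in 1 gene cluster and are similar in sequence, and both comparisons share the WT libraries.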

How the results depend on the processing

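The cytarabine counts stayed within 1.5 times of the reported ones in every alternative. Leaving out 1 library at a time gave 27 to 34 members called in EV, 30 to 35 in WT and 26 to 33 in MUT. It gave 0 to 0 for the difference of effects between MUT and EV, 0 to 1 for MUT and WT, and 0 to 1 for WT and EV. For untreated lines it gave 6 to 14 (MUT against EV), 6 to 12 (MUT against WT) and 6 to 11 (WT against EV), and for treated lines 6 to 15, 9 to 16 and 7 to 11. The lowest untreated counts of 6 against a reported 10 and 11 were those without untreated EV replicate 3 (MUT against EV) and without untreated WT replicate 1 (MUT against WT). DESeq2 called 1 member (OAS3) in the difference between MUT and WT. A fit of only the groups compared called 1 (OAS3) in the difference between WT and EV, 2 in untreated MUT against EV and 5 in untreated MUT against WT, where no filter on low counts gave 7. The cause of these shifts was not tested.

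Over all groups the replicate numbers showed no general pairing of the cultures. Of 45 correlations between same-numbered libraries, 7 were over 0.1 (range -0.18 to 0.35), and 8 of 18 libraries correlated best with their own number. All 7 lay between groups of the EV and MUT lines, with the highest, 0.35, for replicate 3 of treated EV and untreated MUT. Pairing by number within those lines was not tested separately. A fit with the replicate number as a block gave 32, 33 and 32 members called in EV, WT and MUT, 0, 0 and 0 in the differences of effects, 10, 11 and 8 between untreated lines and 10, 14 and 10 between treated lines (each in the order MUT against EV, MUT against WT, WT against EV).

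Of 4669 alternative values for 189 named results, 4381 kept direction and side of the threshold, 213 lost the call, 35 gained one and 40 changed sign. All that changed sign were small and uncalled cytarabine effects on the log2 scale. With the authors' factors the value was -0.061 for IFITM3 in EV, -0.032 for IFITM3 in MUT, -0.058 for IFITM2 in EV, -0.070 for IFI16 in EV and -0.051 for JAK1 in EV. With no filter on low counts the value was -0.00740 for IFITM3 in EV, -0.00410 for IFITM2 in EV and -0.014 for IFI16 in EV. With the replicate block the value was -0.00464 for IFITM2 in EV. With RLE factors the value was -0.00150 for IFI16 in EV. With DESeq2 the value was -0.00163 for IFI16 in EV. Over genes averaging 50 counts or more the value was 0.010 for IFNAR1 in EV, 0.00641 for JAK1 in MUT, 0.050 for IRF3 in EV and 0.026 for IRF3 in WT. With only the groups compared the value was 0.00284 for IRF3 in EV. Without 1 library the range was -0.12 to 0.11 for IFITM3 in EV, -0.14 to 0.15 for IFITM3 in MUT, -0.13 to 0.17 for IFITM2 in EV, -0.11 to 0.28 for IFITM2 in MUT, -0.13 to 0.75 for DHX58 in WT, -0.030 to 0.051 for IFI16 in EV, -0.19 to 0.069 for IRF9 in EV, -0.18 to 0.083 for IFNAR1 in EV, -0.014 to 0.054 for JAK1 in EV, -0.16 to 0.066 for JAK1 in MUT, -0.092 to 0.069 for IRF3 in EV and -0.029 to 0.029 for IRF3 in WT. No other scaling moved the median of all genes by more than 0.085. Members under about 1 CPM rest on few counts a library, so that only large changes were detectable.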

Other observations

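A further list of 64 symbols named other genes known to answer interferon, of which 58 were in the table and 53 were tested. With cytarabine 28 rose and 6 fell in EV, where 26.1% and 22.9% of all tested genes did. In WT 36 rose and 5 fell, against 26.3% and 22.7%, and in MUT 29 rose and 6 fell, against 30.4% and 25.9%. The list's median log2 fold change was 0.35, 0.57 and 0.42 in the same order, beside 0.051, 0.026 and 0.054 for all tested genes. Among the list's genes called in all 3 lines in 1 direction, the 5 largest changes were rises. CASP1, the protease of inflammasomes, rose by 2.23 ± 0.34 (EV), 3.21 ± 0.36 (WT) and 2.73 ± 0.33 (MUT; SE, edgeR adjusted p = 2.0e-05, 6.5e-07 and 1.0e-06). SP140, a chromatin reader of nuclear bodies, rose by 2.89 (EV), 2.08 (WT) and 2.39 (MUT) on the log2 scale, TRANK1 by 2.00 (EV), 2.20 (WT) and 2.26 (MUT), C19orf66, which encodes an inhibitor of ribosomal frameshifting, by 1.93 (EV), 1.97 (WT) and 1.92 (MUT) and APOL3 by 1.63 (EV), 1.82 (WT) and 1.14 (MUT). UBE2L6, the conjugating enzyme of ISG15, rose by 1.42 (EV), 1.42 (WT) and 1.35 (MUT), and was named after its values were seen. In the same list PNPT1, a mitochondrial RNA exonuclease, had log2 fold changes of -0.79 (EV), -0.70 (WT) and -0.82 (MUT) and LAP3, an aminopeptidase, of -0.41 (EV), -0.34 (WT) and -0.63 (MUT), both likewise named afterwards.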
